A study of Saccharomyces cerevisiae with 12 samples.

Results

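The RNA of Y18daft2, a budding yeast (Saccharomyces cerevisiae) strain labelled as deleted for AFT1 and AFT2, was compared with that of CM3260, labelled wild type, in rich medium without drug. Each group was 1 strain, grown in YPD to an optical density of 0.5, and nothing in the labels says whether a strain is 1 clone or whether the slides came from separate cultures. Columns were chosen by labels that name this strain, this medium and no hydroxyurea, which gave 4 of the 12 columns of the series. The 4 columns are 2 spotted slides, each scanned at a strong and a weak setting. On slide 1 Y18daft2 was in channel 2 and CM3260 in channel 1, and on slide 2 the channels were exchanged. The other 8 columns are 2 slides of the same strain pair after 200 mM hydroxyurea for 2 hours, and 2 slides of an aft1 strain against BY4741 after the same treatment. Hydroxyurea inhibits ribonucleotide reductase, the enzyme that makes DNA precursors.

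Aft1 and Aft2 are transcription factors that switch on genes of iron acquisition when iron in the cell is low. Their targets include the cell wall mannoproteins Fit1, Fit2 and Fit3, which hold siderophore-bound iron at the cell surface, the transporters that take up siderophores, the ferric reductases of the Fre family, and the copper and iron transport proteins that act with them. Siderophores are small iron chelators that yeast does not make but takes up from other microbes. In rich medium with ample iron much of this set is known to be weakly expressed.

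Values are ratios of Y18daft2 over CM3260, read as log2 because neither labels nor table give the base. A value of -1 is then a 2-fold lower RNA level in Y18daft2. Were the base e, folds would be larger than printed. The direction of the ratio is likely, not settled, since it rests on the AFT1 spot of the aft1 slides. As deposited, in channel orientation, the medians of the weak and strong scan were -0.25 and -0.15 for slide 1 and -0.26 and -0.12 for slide 2, and those of the other 8 columns lay between -0.53 and 0.85. Each column was therefore centred, and a trend shared with columns of the other comparisons was removed. Spots with 1 gene name gave 3127 genes, whose ratios were tested with limma over all 6 slides of the series. The threshold was an adjusted p of 0.05 (Benjamini-Hochberg over all 3127 genes), and every adjusted p below comes from that fit. With 2 slides in this comparison the number of arrays limits the precision. Each SE and p-value rests on the spread left over in the fit to all 6 slides, partly shared across genes by limma. This spread may be technical, and it is not that between the 2 rich medium slides alone. Beside an SE, n = 2 slides counts the slides behind the mean. With only the rich medium slides fitted, 0 genes passed the threshold.

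The AFT1 spot went against the label of Y18daft2, and the AFT2 spot showed no loss. AFT1 read -0.30 on slide 1 and 0.25 on slide 2. AFT2 read 0.11 and -0.26. Both genes changed sign between the slides. No other strain of the series is labelled as lacking AFT2, so whether its spot reports a deletion was not tested. In hydroxyurea the AFT1 spot read -0.29 and -0.06 in Y18daft2. On the slides of the aft1 strain the same spot read -2.78 and -3.31, so a loss of AFT1 was seen there and not in the strain labelled Y18daft2. The labels do not say how far either deletion extends or where the spot lies in the gene. The direction of every ratio below was taken from the aft1 slides, and no spot checks it in Y18daft2 itself.

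The 2 slides had little in common outside a few genes. Pearson's r between slide 1 and slide 2 was 0.21 and Spearman's rho 0.081, both across 3127 genes, which are not independent replicates. Weak and strong scans of one slide correlated at 0.915 (slide 1) and 0.849 (slide 2), again across genes. The sign was the same on both slides for 1610 genes and opposite for 1517. Within 0.5 of 0 on both slides lay 88.8% of the genes. At 0.5 or more on both slides, 25 genes were above, 25 below and 14 opposite, while at 1 or more 3 were above (0.0959% of genes), 5 below (0.16%) and 0 opposite.

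**Figure D1:**
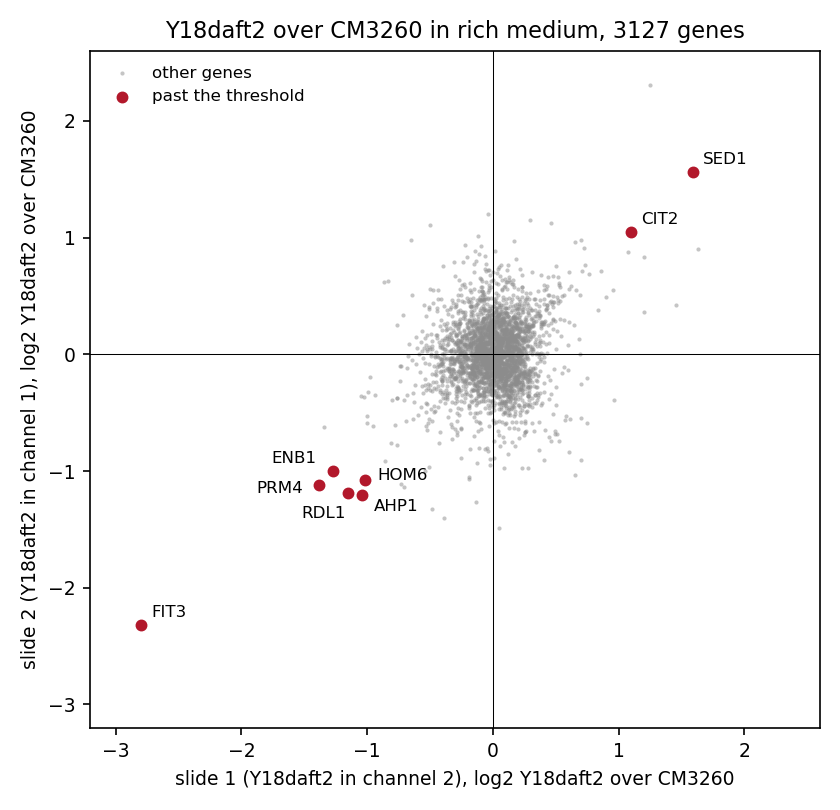
Each point is 1 of 3127 genes, with the log2 ratio of Y18daft2 over CM3260 on slide 1 (horizontal) and slide 2 (vertical). The 8 genes past the threshold are named; FIT3 stands alone at the lower left (-2.80 and -2.32), SED1 at the upper right (1.59 and 1.56), and most other genes form a round cloud about 0.

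Past the threshold were 8 of 3127 genes (0.256%), 6 lower in Y18daft2 (0.192%) and 2 higher (0.064%). The lower genes were FIT3, PRM4, RDL1, ENB1, AHP1 and HOM6, and the higher ones SED1 and CIT2. At an unadjusted p under 0.05 there were 159 genes (5.08%), where 156.35 would be expected with no difference at all. The count of 8 depends on how the shared trend is removed. Of 43 ways of removing it that were run with the number of calls in view, the calls ranged from 1 to 84. In the 26 whose trend was estimated without the slides of the comparison itself, the calls ranged from 1 to 8 with a median of 2, so that the count reported is the highest of that kind. FIT3 was called in 26 of these 26 and SED1 in 20. RDL1 was called in 8, AHP1 in 7, PRM4 in 6, ENB1 and CIT2 in 4 each, and HOM6 in 3. FIT3 is thus the call that did not depend on this choice, and the 6 genes other than FIT3 and SED1 lie at the threshold.

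FIT3 had the lowest mean of the 3127 genes. Its ratio was -2.62 (weak scan) and -2.98 (strong scan) on slide 1, and -1.74 and -2.90 on slide 2. All 4 columns lay more than 1 unit below 0 with Y18daft2 in either channel. The mean of the slides was -2.56 (SE 0.206, n = 2 slides, adjusted p = 0.00296, limma), a 5.89-fold lower level in Y18daft2.

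ENB1 encodes a plasma membrane transporter for the siderophore enterobactin. Its ratio was -1.22 and -1.32 in the weak and strong scan of slide 1, and -0.82 and -1.18 on slide 2. Both slides lay below 0 with a mean of -1.13 (SE 0.163, n = 2 slides, adjusted p = 0.0478, limma), a 2.19-fold lower level. A fit with 1 rich medium slide cannot measure the spread of this comparison, so only ratios are given for it here. Without slide 1 the ratio of ENB1 was -0.98, and without slide 2 it was -1.28.

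**Figure D2:**
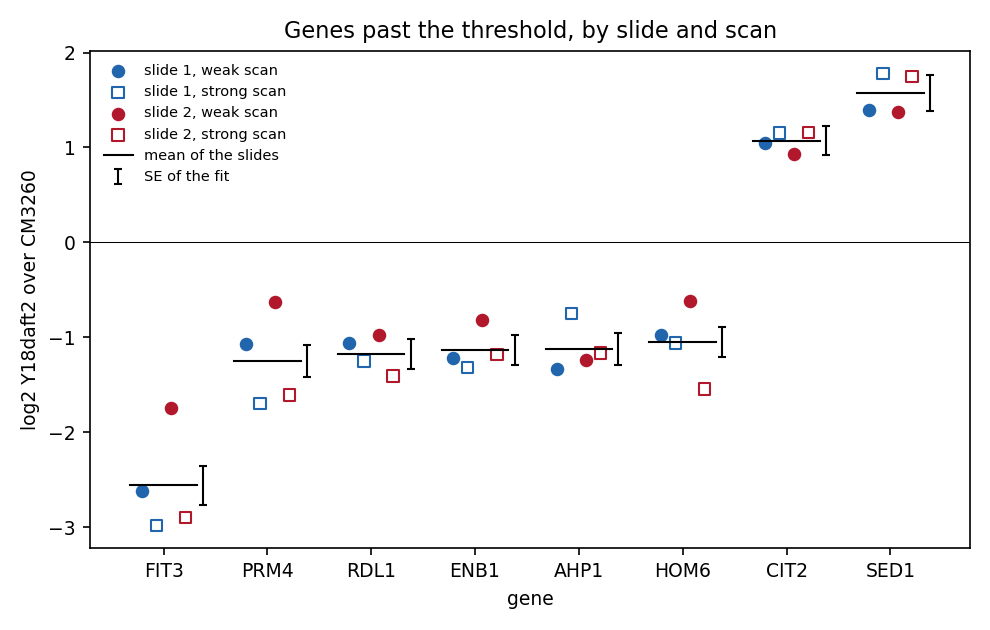
The vertical axis gives the log2 ratio of Y18daft2 over CM3260 for the 8 genes past the threshold, with a point for each slide and scan, a bar at the mean of the slides and the SE of the fit beside it. Every one of the 32 points lies on the same side of 0 as its gene's mean, and the scans of slide 2 lie apart by more than 0.9 for FIT3, PRM4 and HOM6.

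Of 19 genes listed for iron uptake at the cell surface, 10 were measured. Lower past the threshold were 2 of the 10, FIT3 and ENB1, where 0.192% of all genes were, and 0 were higher. The median of the 10 was -0.055, against 0.0011 over all 3127 genes. FIT1 and FET3 are not among the 10, so this median does not cover the whole set of Aft targets. ATX1, a copper chaperone that delivers copper to the secretory pathway where the iron oxidase Fet3 is loaded, read -0.51 and -0.55 (adjusted p = 0.493, limma). SMF1, a manganese and divalent metal transporter, read 0.44 and 0.51 (adjusted p = 0.749, limma).

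The ferric reductases, which reduce iron before uptake, lay near 0. FRE2 read 0.14 and -0.03 on the slides. FRE3, a reductase for siderophore-bound iron, read -0.08 and 0.08, FRE4 -0.04 and -0.18, FRE5 0.22 and -0.08, and FRE6, which acts at the vacuole, -0.20 and -0.04. Their means ran from -0.12 to 0.07, all with an adjusted p of 0.9999 (limma). FIT2, which has the same role as FIT3, read -0.0025 and 0.035. How far a spot tells close relatives such as FIT2 and FIT3 apart was not tested.

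**Figure D3:**
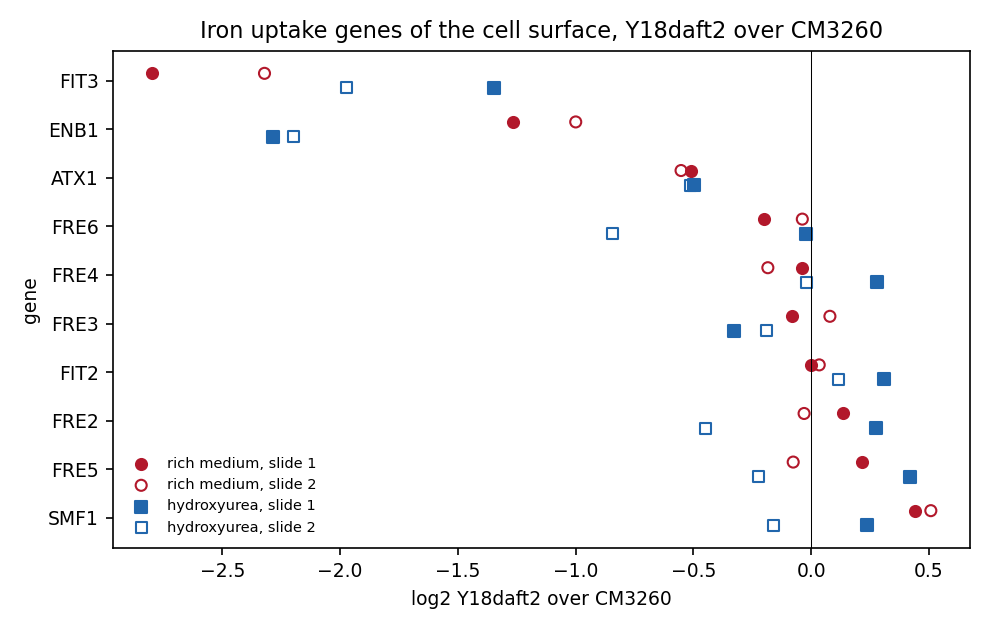
Each row is 1 of the 10 measured iron uptake genes, with its log2 ratio of Y18daft2 over CM3260 on the slides in rich medium (circles) and in hydroxyurea (squares). FIT3 and ENB1 lie below -0.9 on all 4 slides, ATX1 lies near -0.5 on all 4, FRE6 lies below 0 on all 4 (-0.20 and -0.04 in rich medium), and the other FRE genes and FIT2 have values on either side of 0.

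The genes beside FIT3 and ENB1 in gene order (RefSeq gene table, assembly R64) did not share their ratios. FIT3 and ENB1 are both on chromosome XV, far apart in that order. FIT3 lies between FIT2 and FRE5, and 7 of the 8 nearest genes, 4 on each side, were measured. Their means ran from -0.32, for the uncharacterised YOR385W, to 0.070, for FRE5. Of the 8 genes nearest ENB1, 5 were measured, with means from -0.17 for CSS3 to 0.18 for the hexose transporter HXT11. Around AFT1, 5 neighbours read -0.23 to 0.040, and around AFT2, 7 read -0.034 to 0.26.

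**Figure D4:**
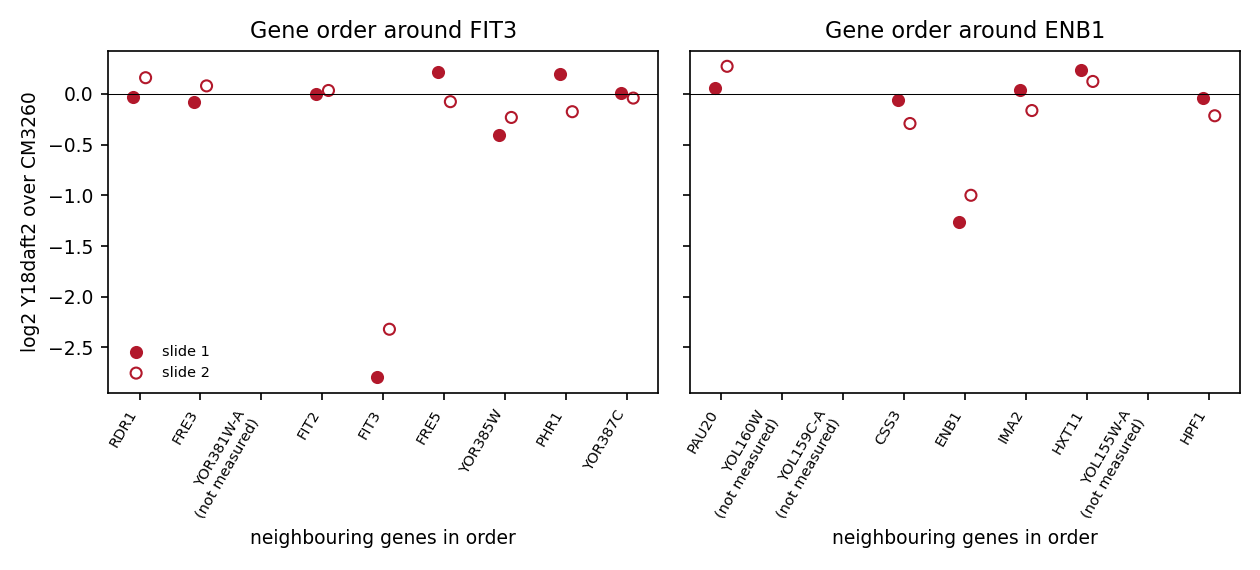
The horizontal axis gives the genes in order around FIT3 (left) and ENB1 (right), 4 on each side, and the vertical axis the log2 ratio of Y18daft2 over CM3260 on each slide. FIT3 at -2.80 and -2.32 and ENB1 at -1.27 and -0.999 stand below all their measured neighbours, which lie within 0.41 of 0 on each slide.

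A list for the handling of iron, iron-sulfur clusters and haem inside the cell was centred near 0. It is broad and also holds genes of other functions, such as the heat shock gene HSP26 and the cyclin gene PCL5. Of 40 listed genes 25 were measured, 0 passed the threshold, and 0 had an unadjusted p under 0.05, where 0.256% and 5.08% of all genes did. Their median was -0.067, and 16 of 25 had opposite signs on the slides, where 48.5% of all genes had. The list holds SMF3, which exports iron from the vacuole and read 0.12 and -0.86, the vacuolar iron transporter FTH1 at -0.67 and 0.09, and CCC1, which stores iron in the vacuole, at 0.06 and -0.19. TIS11, also called CTH2, binds and destabilises messages of iron-using proteins and read 0.37 and -0.58. These 4 genes changed sign between the slides. BIO2, the biotin synthase with an iron-sulfur cluster, was below 0 on both slides at -0.35 and -0.34, and the mitochondrial iron carriers MRS3 and MRS4 read -0.14 and -0.04, and -0.07 and 0.40.

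Haem synthesis and the respiratory chain, which use iron, had list medians below 0 without a gene past the threshold. All 5 measured genes of haem synthesis had a mean below 0, where 1554 of all 3127 genes had, with a median of -0.30. Below 0 on both slides were 3 of the 5, while HEM4 read 0.02 and -0.42 and HEM13 0.02 and -0.09. HEM15, the ferrochelatase that inserts iron, read -0.27 and -0.52, and HEM3 -0.64 and -0.05. Of 29 measured genes of the respiratory chain and ATP synthase, 16 were below 0 on both slides and 0 above 0 on both, where 23.8% and 27.7% of all genes were. Their median was -0.12 on slide 1 and -0.28 on slide 2. An unadjusted p under 0.05 was found for 3, all lower, where 83 of all 3127 genes were lower at that p. SDH3, a membrane subunit of succinate dehydrogenase, read -0.81 and -0.76 (adjusted p = 0.175, limma). CYC1, cytochrome c, read -0.69 and -0.57 (adjusted p = 0.368, limma). QCR8 of the cytochrome bc1 complex read -0.29 and -0.69, and the Rieske iron-sulfur protein RIP1 -0.41 and -0.34.

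CIT2, the peroxisomal citrate synthase and the classical read-out of retrograde signalling from mitochondria to nucleus, was higher in Y18daft2. It read 1.05 and 1.15 in the scans of slide 1, and 0.93 and 1.16 on slide 2. All 4 columns lay close together, with a mean of 1.07 (SE 0.157, n = 2 slides, adjusted p = 0.0478, limma), a 2.10-fold higher level. Fitted without slide 1 its ratio was 0.99, and without slide 2 it was 1.15. Of 15 measured genes of the TCA cycle and retrograde response, 1 was higher past the threshold, 0 lower, where 0.064% of all genes were called higher. Above 0 on both slides were 9 of the 15, against 27.7% of all genes, and below 0 on both were 3, or 20%, against 23.8%. IDH2, a subunit of NAD-dependent isocitrate dehydrogenase, read 0.72 and 0.91 (adjusted p = 0.158, limma), and IDH1, its partner, 0.47 and 0.27. RTG1, RTG2 and RTG3, the regulators of this response, read 0.14 and 0.29, 0.16 and 0.64, and 0.11 and 0.34. GLT1, the glutamate synthase, was on the other side at -0.78 and -0.60 (adjusted p = 0.381, limma), while GDH2, which breaks glutamate down, read 0.48 and 0.67. CIT1, the mitochondrial citrate synthase, had opposite signs at 0.17 and -0.63.

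SED1, an abundant cell wall glycoprotein anchored by glycolipid, was the highest call. It read 1.40 and 1.78 in the scans of slide 1, and 1.38 and 1.75 on slide 2. The slides lay within 0.03 of each other, with a mean of 1.58 (SE 0.188, n = 2 slides, adjusted p = 0.0327, limma), a 2.98-fold higher level. Fitted without slide 1 its ratio was 1.62, and without slide 2 it was 1.53. With SED1, 13 of 26 measured genes of cell wall proteins and glucan synthesis were above 0 on both slides, and 0 were below 0 on both, where 27.7% and 23.8% of all genes were. The medians were 0.029 on slide 1 and 0.24 on slide 2. SCW4, a wall glucanase-like protein, read 0.96 and 0.55, and DAN1, a wall mannoprotein of anaerobic cells, 0.46 and 1.13. PIR1 read 0.40 and 0.55, and CRH1, which links chitin to glucan, 0.38 and 0.67. EGT2, expressed after cell division, had opposite signs at -0.64 and 0.51.

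RDL1 and HOM6 were the calls among genes of sulfur and methionine metabolism. RDL1, a thiosulfate sulfurtransferase, read -1.06 and -1.25 in the scans of slide 1, and -0.98 and -1.41 on slide 2, with a mean of -1.17 (SE 0.160, n = 2 slides, adjusted p = 0.0464, limma). HOM6, the homoserine dehydrogenase on the way to threonine and methionine, read -0.97 and -1.06 on slide 1 and -0.62 and -1.54 on slide 2. Its mean was -1.05 (SE 0.158, n = 2 slides, adjusted p = 0.0478, limma). Fitted without slide 1 the ratio was -1.29 for RDL1 and -1.14 for HOM6, and without slide 2 it was -1.06 and -0.96.

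Of 21 measured members of that list 2 were lower past the threshold and 0 higher, where 0.192% and 0.064% of all genes were. At an unadjusted p under 0.05 there were 4 lower and 1 higher, against 83 and 76 of all 3127 genes. The median was -0.018, and 8 (38.1%) were above 0 on both slides and 8 below, where 27.7% and 23.8% of all genes were. MET22, a phosphatase needed for sulfate assimilation, read -0.19 and -1.05 (adjusted p = 0.863, limma). CYS4, the cystathionine beta-synthase, read -0.25 and -0.89 (adjusted p = 0.702, limma). HOM2, the enzyme before HOM6, read -0.17 and -0.05, MET5, a sulfite reductase subunit, -0.05 and -0.80, and MET2 and MET14 lay between 0.08 and 0.21 on both slides. STR2, on the route from cysteine to methionine, read 0.43 and 0.42.

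AHP1, a thioredoxin peroxidase, was lower in Y18daft2. Its ratio was -1.34 and -0.75 in the scans of slide 1, and -1.24 and -1.17 on slide 2. The mean was -1.12 (SE 0.167, n = 2 slides, adjusted p = 0.0478, limma), a 2.18-fold lower level. Fitted without slide 1 its ratio was -1.33, and without slide 2 it was -0.92. TRX1, a cytosolic thioredoxin, read -0.71 and -1.14 (adjusted p = 0.164, limma), whereas its close relative TRX2 read 0.75 and -0.59. SOD1, the copper-zinc superoxide dismutase, read 0.86 and 0.71 (adjusted p = 0.292, limma), and CCS1, the chaperone that loads its copper, 0.43 and 0.39. Over the 17 measured genes of peroxide and superoxide defence 1 was lower past the threshold and 0 higher, where 0.192% and 0.064% of all genes were. The medians were 0.26 on slide 1 and -0.35 on slide 2.

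PRM4, named for its induction by mating pheromone, read -1.07 and -1.70 in the scans of slide 1, and -0.63 and -1.61 on slide 2. The weak and strong scans of a slide were further apart than the slides, and the mean was -1.25 (SE 0.169, n = 2 slides, adjusted p = 0.0464, limma). Fitted without slide 1 its ratio was -1.09, and without slide 2 it was -1.41. Of 13 measured genes of pheromone response and fusion it was the 1 past the threshold, where 0.256% of all genes were, and the median was -0.050. PRM5, a cell wall stress and pheromone target, was above 0 at 0.77 and 0.69.

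As a check of mating type, genes expressed only in alpha cells or only in a cells were read. Of 5 measured alpha-specific genes 4 were below 0 on both slides, where 23.8% of all genes were, and 0 passed the threshold. MF(ALPHA)2, an alpha-factor gene, read -1.35 and -0.62, and the agglutinin SAG1 -0.997 and -0.59, the latter from the weak scan alone. AFB1 read -0.76 and -0.37, and the a-factor receptor STE3 -0.51 and -0.08. The 2 spots of STE3 differed, at -1.025 and -0.161 for one and 0.013 and -0.005 for the other. MF(ALPHA)1, the main alpha-factor gene, read 0.06 and 0.22. All 4 measured a-specific genes had opposite signs on the slides, where 48.5% of all genes had. Their median was 0.086 on slide 1 and -0.42 on slide 2. Mating type is not in the labels, and the part of a strain difference in these values was not tested.

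OLE1, the fatty acid desaturase whose reaction centre holds iron, lay just outside the threshold. It read 1.20 and 0.83, with a mean of 1.02 (SE 0.158, n = 2 slides, adjusted p = 0.0537, limma). Of 19 measured genes listed under ergosterol and fatty acid synthesis 7 were above 0 on both slides and 4 below, where 27.7% and 23.8% of all genes were, and 0 passed the threshold. The 7 include IZH3, IZH4 and SCD5 (0.54 and 0.16), which are not enzymes of that synthesis. IZH3, a membrane protein linked to zinc, read 0.73 and 0.76 and IZH4 0.48 and 0.44. The elongase ELO1 read 0.61 and 0.56, the acetyl-CoA carboxylase ACC1 0.53 and 0.60 and the fatty acid synthase subunit FAS1 0.52 and 0.44. CYB5, cytochrome b5, a haem protein that feeds electrons to sterol and lipid enzymes, was on the other side at -0.34 and -0.60.

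GCV1, a subunit of the glycine cleavage system, had the highest mean of all genes without passing. Its ratio was 1.25 on slide 1 and 2.31 on slide 2, a mean of 1.78 (SE 0.329, n = 2 slides, adjusted p = 0.134, limma). SHM2, the cytosolic serine hydroxymethyltransferase, read 0.70 and 0.98 (adjusted p = 0.420, limma). The other 8 measured genes of one-carbon and purine synthesis had means from -0.28 for ADE12 to 0.34 for ADE2.

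Among the genes ranked highest by the smaller of their slide values, and not past the threshold, were also NCA3 (1.63 and 0.90), a gene linked to mitochondrial ATP synthase expression, and the mitochondrial protein gene MIX17 (1.07 and 0.88). POC4, a chaperone of proteasome assembly, read 0.71 and 0.71. UBI4, the stress-induced polyubiquitin gene, read 0.66 and 0.96, GRE1 0.60 and 0.70 and BXI1 0.62 and 0.59. On the low side were LYS9, the saccharopine dehydrogenase of lysine synthesis (-0.86 and -0.91), MTC1 (-0.76 and -0.78), and FBA1, the glycolytic aldolase (-0.96 and -0.62). Their adjusted p lay between 0.106 for MIX17 and 0.475 for BXI1 (limma).

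RNR2, the small subunit of ribonucleotide reductase that carries the enzyme's iron centre, read -0.73 and -1.11 (adjusted p = 0.164, limma). RNR4, the other small subunit gene, read -0.07 and -0.35. RFA3, of the single-stranded DNA binding complex, read -0.64 and -0.56. Of 33 measured genes of DNA replication and damage 15 were below 0 on both slides and 7 above, where 23.8% and 27.7% of all genes were, and the median was -0.044.

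Proteasome genes lay above 0 more often than below. Of 23 measured genes 14 were above 0 on both slides and 1 below, where 27.7% and 23.8% of all genes were, with medians of 0.28 on slide 1 and 0.20 on slide 2. SCL1, a subunit of the core particle, read 0.52 and 0.66, and the lid subunit RPN6 read 0.52 and 0.46. Past the threshold were 0, with 5 at an unadjusted p under 0.05, all higher, where 5.08% of all genes in either direction had such a p. Cytosolic ribosomal protein genes went the other way. Of 50 measured 29 were below 0 on both slides and 5 above, where 23.8% and 27.7% of all genes were, 0 passed the threshold, and the medians were -0.33 on slide 1 and -0.053 on slide 2. RPS22A read -1.05 and -0.36, RPL30 -0.99 and -0.32, and RPL25 -0.93 and -0.35, so the size came mostly from slide 1. Ribosome biogenesis genes, 58 measured, had medians of -0.036 on slide 1 and 0.25 on slide 2. Opposite signs were found for 34 of them, where 48.5% of all genes had opposite signs.

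**Figure D5:**
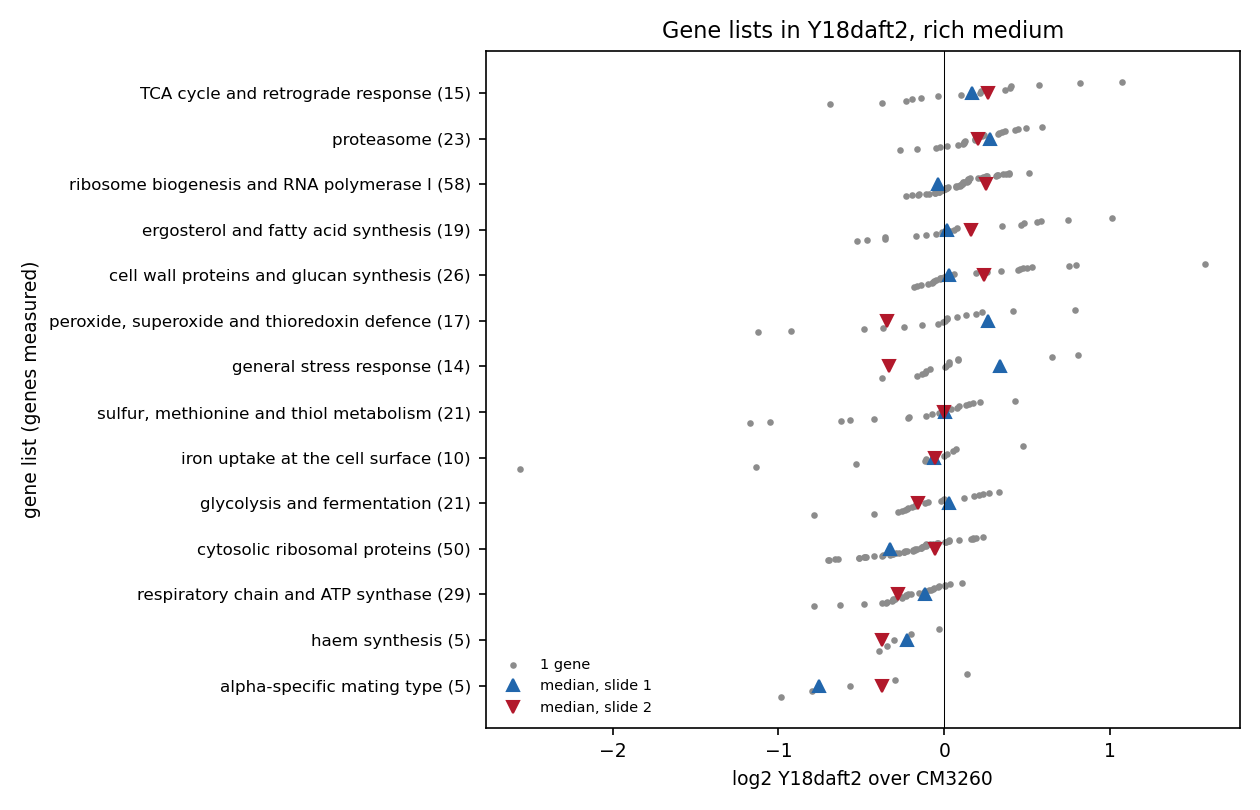
Rows are 14 gene lists with the number of genes measured in each. Small points are the mean log2 ratios of Y18daft2 over CM3260 of single genes, and triangles the list medians on slide 1 and slide 2. The medians lie on the same side of 0 for TCA cycle, proteasome, haem synthesis, respiratory chain and alpha-specific genes, and on opposite sides for general stress response (0.34 and -0.33) and peroxide defence (0.26 and -0.35).

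Genes of the general stress response had opposite signs on the slides more often than not. Of 14 measured genes 10 had opposite signs, where 48.5% of all genes had, with a median of 0.34 on slide 1 and -0.33 on slide 2. Among its members SOL4 read 0.60 and -0.84, RTN2 0.53 and -0.74 and GCY1 0.70 and -0.54. Outside the list, RTC3 read 0.70 and -0.91 and YMR315W 0.66 and -1.03, the most opposed of all genes by the smaller of their sizes. Expressed after mitosis, the daughter-cell genes DSE4 (-0.65 and 0.98) and AMN1 (-0.83 and 0.63) had the reverse pattern, as did the histone genes HTA2 (-0.87 and 0.62) and HTB2 (-0.41 and 0.47). With 1 slide in each orientation, the 2 rich medium slides alone cannot tell the slide and the channel of Y18daft2 apart. The channel coefficient of the fit draws on all 6 slides, and it was not tested for these genes.

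The same strain pair was also measured in hydroxyurea, and the difference of the ratios, rich medium minus hydroxyurea, was tested gene by gene. Past the threshold were 0 of 3127 genes (0%) by limma, with the lowest adjusted p at 0.294, and 109 genes (3.49%) had an unadjusted p under 0.05. The difference is therefore given as values only. FIT3 averaged -2.56 in rich medium and -1.66 in hydroxyurea, a difference of -0.90 (SE 0.292). ENB1 averaged -1.13 in rich medium and -2.24 in hydroxyurea, a difference of 1.11 (SE 0.23, adjusted p = 0.52, limma), so the order of these genes by size was exchanged between the media. PRM4 was below 0 on all 4 slides, at -1.38 and -1.12 in rich medium against -0.80 and -1.07 with hydroxyurea.

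For the other calls the hydroxyurea slides lay near 0 or on the other side. The slides in rich medium gave CIT2 values of 1.10 and 1.04, and those in hydroxyurea -0.53 and -0.38, a difference of 1.52 (SE 0.221, adjusted p = 0.294, limma). For SED1 the values were 1.59 and 1.56 in rich medium against 0.27 and -0.27 with hydroxyurea, a difference of 1.58 (SE 0.265, adjusted p = 0.422, limma). For RDL1 they were -1.15 and -1.19 in rich medium against -0.16 and 0.15 with hydroxyurea, a difference of -1.17 (SE 0.227, adjusted p = 0.451, limma). HOM6 and AHP1 differed by -1.02 and -0.89. CYC1, not called in rich medium, read -0.69 and -0.57 there and 0.49 and 0.52 in hydroxyurea (adjusted p = 0.451, limma). None of these differences passed, so an effect seen in rich medium is not shown to be absent in hydroxyurea.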

How the data were processed

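The authors deposited 1 table of ratios, 6912 spots by 12 columns, with unit and direction not stated. The deposited values were read as log2 of channel 1 over channel 2. How the authors made them, the dyes and any background correction are not given in the sources used here. Per the labels, RNA came from a column kit and was labelled indirectly. Intensities of the spots were not analysed here, which leaves their signal over background unknown.

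Exact zeros of strong scans were set to missing and each column was centred on its median. A loess curve (span 0.3, 4 iterations) of each column on the mean of the columns of the other comparisons, in channel orientation, was subtracted. Ratios were turned to Y18daft2 over CM3260, the scans of a slide averaged, and spots averaged per gene. Of 6912 spots 3344 had a single gene symbol, 387 several and 3181 none listed. For 207 genes with more than 1 spot the median gap between spots was 0.116. The fit (R 4.3.3, limma 3.58.1, lmFit and eBayes) had a coefficient for each of 3 comparisons and 1 for the channel of the strain labelled mutant, with 2 residual degrees of freedom, and p was adjusted by Benjamini-Hochberg. It was also run on simulated data with planted changes, independent noise and the same trend put back. That run cannot speak to the choice of the trend step.

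The trend step was not chosen blind. The plan named a shared channel trend without its axis or span, and listed an axis from the 4 slides of the other comparisons as an alternative. After the data were seen, 43 treatments of the trend were run with the number of called genes in view, giving 1 to 84 calls. An axis that includes the column's own comparison was set aside because it makes the slides of a comparison agree after turning. With it r between the slides was 0.483 to 0.638, and 33 to 84 genes were called. With only the column's own slide left out, 41 and 45 genes were called. With the hydroxyurea slides as the axis for all columns, 76 were. Of 26 treatments without the own comparison, the one kept, itself chosen after the data were seen, is the one that gave the values of an earlier report on these data. It gave 8 calls, the most of that kind.

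The members and the 31 gene lists were chosen with earlier results of these data known. Genes named are AFT1 and AFT2, those past the threshold, the 15 highest and 15 lowest by the smaller of their slide values, up to 6 of each list, and all of the iron lists. A few others, such as genes of opposite sign and neighbours of FIT3 and ENB1, were chosen after their values were seen. Alternatives were the deposited values, median centring only, single scans, zeros kept, other trend axes, print blocks, no channel coefficient and slides left out. Gene symbols came from the platform's probe table, and 3126 of 3127 matched the RefSeq gene table (assembly R64). No sequences are printed.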

Additional observations from a re-analysis of the deposited data

Results flagged for a closer look

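Of 3568 spots with no single gene symbol in the probe table, which the gene comparison leaves out, 6 lay at least 1 unit from 0 on both slides in rich medium, 3 below and 3 above. They drew attention as signal outside the named genes, and their genes are not named here. The spot at block position 41.7.8 read -3.52 on slide 1 and -2.57 on slide 2 (mean -3.05), lower than any named gene. It also read -2.86 and -4.07 on the hydroxyurea slides of Y18daft2, and -4.37 and -4.24 on those of the aft1 strain. Spot 42.4.3 had a mean of -1.37 and spot 33.9.5 of -1.27, and both were below -1 on all 6 slides of the series. Spot 3.11.7 had a mean of 1.25 in rich medium and read -0.23 and -0.02 in hydroxyurea. Spots 1.6.2 and 3.6.2, with means of 1.45 and 1.60 in rich medium, were above 1.3 on both hydroxyurea slides of Y18daft2 and between -0.42 and 0.39 on the aft1 slides.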

How the results depend on the processing

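FIT3 kept its call in 17 of 19 alternatives that keep the turning and SED1 in 15 of 17, while PRM4 kept its call in 11 of 17, RDL1, ENB1 and CIT2 in 11 of 19, AHP1 in 9 of 16 and HOM6 in 7 of 19. Against 8 genes as reported, 2 were called from values as deposited, 5 with columns centred on their median only, 1 from strong scans only, 15 with no channel coefficient, 0 with only the rich medium slides fitted (234 at an unadjusted p under 0.05, limma), 2 with the trend axis from slide means, 3 with it from strong scans, 84 with it from all 6 slides, and 4 when the 12 columns entered the fit with a random block per slide, all 4 higher and 1 shared with the 8. Strong scans only and the fit of 12 columns tested 2921 genes, and the axis from strong scans 3124. SED1, PRM4 and AHP1 were not among the 2921 genes, and AHP1 was not among the 3124. Their alternatives therefore number 17 or 16 and not 19, and an untested gene is not a lost call. The lower share of calls was 75% as reported, 50% as deposited and 40% with median centring only, and with the direction turned 25%, 50% and 60%. Leaving out a slide of the comparison gave 10 to 30 genes (4 of the 8 each time), a lone slide being assumed to vary like the others, and 11 to 12 without another slide. The axis from the 4 slides of the other comparisons, listed as an alternative, gave 8 calls with columns averaged and 2 with slides averaged. The first was reported, a choice made after the data were seen, against 84 with all 6 slides.

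With columns taken as already turned, 0 genes were called (125 at an unadjusted p under 0.05, limma). The means of CIT2 (-0.027), ENB1 (0.134), FIT3 (0.238), PRM4 (0.133) and SED1 (-0.015) then lay on the other side of 0. Without turning, such a mean reflects only the gap in size between the slides, so its sign gives no direction. The difference from hydroxyurea had 0 calls as reported, 28 with the axis from all 6 slides, 1 with the 12 columns, 1 without replicate 1 of Y18daft2 in hydroxyurea, and 3 to 32 without a rich medium slide; the causes were not tested. List medians of TCA cycle (0.088 to 0.39), proteasome (0.17 to 0.33), respiratory chain (-0.35 to -0.11), haem synthesis (-0.41 to -0.12) and cytosolic ribosomal protein genes (-0.31 to -0.065) kept their sign in all alternatives that keep the turning. Other lists changed sign among them, such as ribosome biogenesis (-0.11 to 0.29), intracellular iron (-0.20 to 0.14) and peroxide defence (-0.49 to 0.38). So did cell wall (-0.00375 to 0.31), ergosterol and fatty acid synthesis (-0.028 to 0.13) and sulfur metabolism (-0.095 to 0.025). No paired analysis was possible because the replicate number coincides with the channel of Y18daft2, which the fit already holds.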
